A study of Mus musculus with 6 samples.

Results

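Keratins are the intermediate filament proteins of epithelial cells. A filament is built from pairs of an acidic type I keratin and a basic type II keratin, and the pair in use marks the kind of epithelium. Krt8 and Krt18 form the first pair of the embryo and the main pair of simple epithelia such as pancreas and gut, Krt7 and Krt19 are typical of ducts, and Krt5 with Krt14 marks the basal layer of stratified epithelia. The keratins described here are 10 genes fixed by name, Krt7, Krt8, Krt18, Krt19, Krt20 and Krt23 of simple epithelia and Krt5, Krt13, Krt14 and Krt15 of stratified epithelia, out of 19938 genes tested. Each of the 10 had 1 row with a single gene symbol in the table of array values.

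RNA was measured in whole pancreata of mouse embryos at E13.5, as 3 pools of Pdx1-Cre; Ctnnb1tm1Mmt/+ pancreata (mutant pools, labelled beta-catenin activated) and 3 pools of control pancreata (labelled wild type). Each pool held 3 pancreata and was hybridized to 1 Affymetrix Mouse Gene 1.0 ST array, and pools are biological replicates by their labels. In the mutants, Cre driven by the Pdx1 promoter removes the floxed exon 3 from 1 copy of Ctnnb1, so that β-catenin is stabilized in epithelial cells of the Pdx1 domain, while the RNA came from epithelium and mesenchyme together. Array medians over all rows lay between 6.37 and 6.47 (log2), and the number of arrays limits the precision of each value.

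For the keratins whose values differed most between genotypes, the 150 bases before the annotated start are given first, since Krt8, Krt18 and Krt7 fell together while Krt23 and Krt5 rose. Sequences are from RefSeq (GRCm38.p6), read 5′ to 3′ on the strand of the gene, with every ATAAAA (letters shared with the box that positions the start of many genes), CTTTGA (the core bound by TCF/LEF factors, the partners of β-catenin) and GGGCGG (a GC box) on either strand in capitals. Of the 10 keratins, 8 had an entry in that table, and Krt15 and Krt19 had none.
Krt8, chr15:102004343-102004492, minus strand: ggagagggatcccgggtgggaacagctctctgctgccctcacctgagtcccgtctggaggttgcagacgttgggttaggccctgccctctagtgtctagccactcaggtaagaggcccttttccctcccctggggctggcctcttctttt
Krt18, chr15:102028066-102028215, plus strand: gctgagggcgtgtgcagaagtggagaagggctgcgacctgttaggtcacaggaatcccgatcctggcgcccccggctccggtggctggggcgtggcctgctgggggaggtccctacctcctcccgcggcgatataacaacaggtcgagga
Krt7, chr15:101412253-101412402, plus strand: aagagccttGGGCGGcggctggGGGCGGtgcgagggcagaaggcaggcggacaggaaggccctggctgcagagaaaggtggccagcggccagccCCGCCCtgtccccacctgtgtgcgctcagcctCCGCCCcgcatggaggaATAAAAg
Krt23, chr11:99493121-99493270, minus strand: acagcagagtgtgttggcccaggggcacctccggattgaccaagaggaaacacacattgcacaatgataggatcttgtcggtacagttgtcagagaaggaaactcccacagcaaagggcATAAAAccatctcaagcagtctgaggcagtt
Krt5, chr15:101712906-101713055, minus strand: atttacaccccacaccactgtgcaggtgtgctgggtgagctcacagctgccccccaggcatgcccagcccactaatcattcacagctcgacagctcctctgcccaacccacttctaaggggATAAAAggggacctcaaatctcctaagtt

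The 250 bases before the start were searched for these motifs on both strands in all 9 entries of the 8 genes. ATAAAA lay 29 bases before the start of Krt5, 31 bases before that of Krt23 and 7 bases before that of Krt7, and the letters of Krt13 (29 bases in 1 of its entries) and Krt20 (28 bases) also hold it, while those of Krt8, Krt18 and Krt14 do not. Over all 32851 promoter entries, 2.18% have ATAAAA on the same strand within the last 40 bases and 17% on either strand within 250 bases. GGGCGG matched 4 times in Krt7 and in none of the other 7 keratins searched, against 32.7% of all entries with a match. CTTTGA, found in 13.8% of all entries, was in none of these windows. Other forms of the TCF/LEF core were not searched. ATAAAA was chosen after the sequences had been read, and a match of letters is a description of the sequence.

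At an adjusted p under 0.05 from limma, 4 of the 10 keratins were lower in the mutant pools, against 7.53% of all genes tested, and 2 were higher, against 6.59%. All 4 that fell (Krt8, Krt7, Krt18 and Krt19) are keratins of simple epithelia, and those that rose were Krt23 and Krt5. The other 4 (Krt20, Krt13, Krt14 and Krt15) did not pass. The median log2 change of the 10 was -0.17, against 0.03 over all genes tested. In a bulk sample, fewer epithelial cells and less keratin RNA per cell cannot be told apart.

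**Figure D1:**
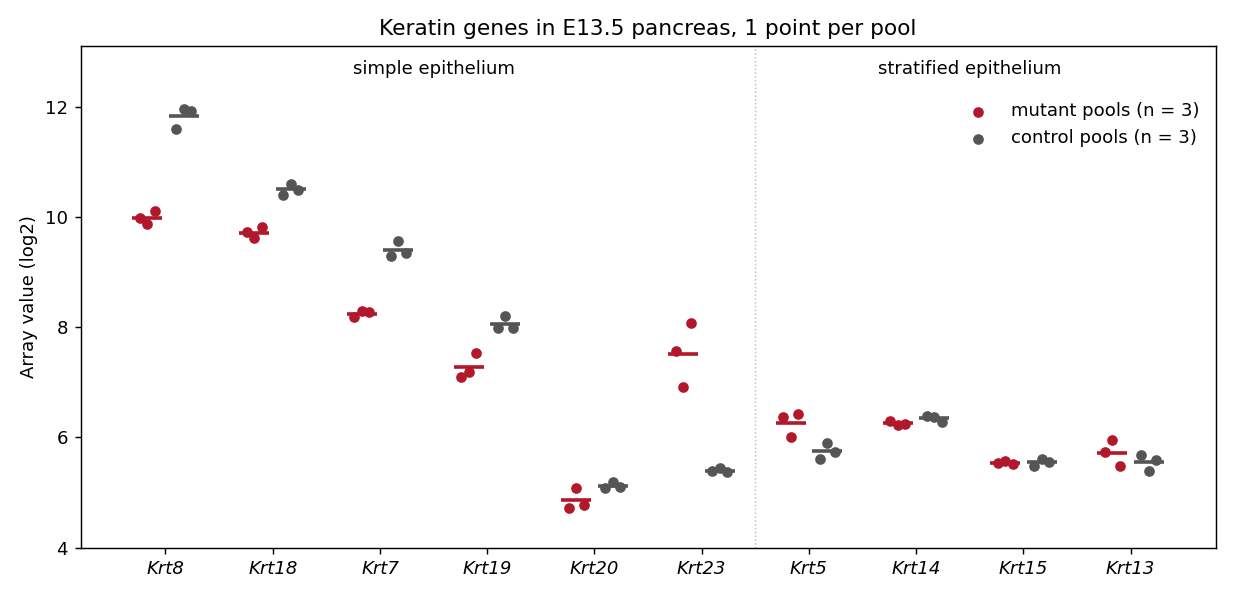
Array values (log2, vertical axis) of the 10 keratins of embryonic pancreas. Points are single pools and bars are means of 3 mutant pools (red) and 3 control pools (grey). The mutant points of Krt8, Krt18, Krt7 and Krt19 lie below all control points, and those of Krt23 and Krt5 lie above them. Over all genes tested, the mutant pools lay wholly below the control pools for 13.9% and wholly above them for 16.9%.

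Krt8, the type II keratin of simple epithelia, measured 9.98, 9.86 and 10.11 (log2) in the mutant pools and 11.60, 11.95 and 11.92 in the control pools. Every mutant pool lay well below every control pool. The level fell 3.57-fold (-1.84 on the log2 scale, standard error (SE) 0.12, limma adjusted p = 5.69e-06), the largest decrease among the 10 keratins.
Its type I partner Krt18 measured 9.72, 9.61 and 9.81 in the mutant pools and 10.40, 10.60 and 10.49 in the control pools. These groups did not overlap either, but the decrease was smaller, 1.72-fold (-0.78 on the log2 scale, SE 0.10, limma adjusted p = 0.000467). Krt8 and Krt18 are next to each other on chromosome 15 in the RefSeq order of protein-coding genes, where Krt18 is a type I gene beside the type II cluster.
The difference between both genes within an array, Krt8 minus Krt18, was 0.25, 0.25 and 0.30 (log2) in the mutant pools and 1.20, 1.35 and 1.43 in the control pools. It averaged 0.27 ± 0.03 in the mutant pools and 1.33 ± 0.12 in the control pools (SD, n = 3 each), so that Krt8 fell 2.08-fold further than Krt18 (exact permutation test, two-sided, p = 0.1, the smallest p that 3 pools against 3 allow). Array values of different genes have no common scale, so only the change in such a difference is read.

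Krt7, a type II keratin of duct and other glandular epithelia, measured 8.18, 8.28 and 8.27 (log2) in the mutant pools and 9.29, 9.57 and 9.34 in the control pools. All mutant pools were below all control pools, and the spread of the mutant pools was small (SD 0.06). Krt7 fell 2.23-fold (-1.16 on the log2 scale, SE 0.10, limma adjusted p = 4.39e-05).
Krt19, the type I keratin by which pancreatic ducts are commonly marked, measured 7.09, 7.19 and 7.52 in the mutant pools and 7.99, 8.20 and 7.98 in the control pools. Mutant replicate 3 was the closest to the control pools, without reaching them. The decrease was 1.72-fold (-0.79 on the log2 scale, SE 0.13, limma adjusted p = 0.00217).
Krt7 minus Krt19 was 1.09, 1.09 and 0.75 within the mutant arrays and 1.31, 1.37 and 1.36 within the control arrays. The mutant values were all lower, by 0.37 on average, and the test again gave the smallest possible value (exact permutation test, two-sided, p = 0.1).

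Krt23 rose 4.35-fold, the largest change of the 10 keratins in either direction (2.12 on the log2 scale, SE 0.23, limma adjusted p = 0.000191). It is a type I keratin that is known in humans from glandular epithelia and their tumours. Its array values were 7.57, 6.91 and 8.08 (log2) in the mutant pools and 5.38, 5.44 and 5.37 in the control pools. The control pools were nearly level, at a mean of 5.40 that lies below the lower quartile of all genes tested (5.44), whereas the mutant pools spread over more than 1 log2 unit with replicate 2 the lowest and replicate 3 the highest. Without any 1 array the log2 change was between 1.84 and 2.42, with an adjusted p of at most 0.00191 from limma. The neighbours of Krt23 on chromosome 11, Krt20 and Krt39, did not pass the test, at -0.26 and 0.07 on the log2 scale (95% confidence intervals -0.52 to -0.01 and -0.32 to 0.46).

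Krt20, a type I keratin of intestinal and gastric surface epithelium, measured 4.71, 5.09 and 4.78 (log2) in the mutant pools and 5.08, 5.18 and 5.10 in the control pools. Mutant replicate 2 reached the range of the control pools, while the other 2 mutant pools lay below it. The log2 change was -0.26 (95% confidence interval -0.52 to -0.01, adjusted p = 0.18 from limma) and did not pass. Without mutant replicate 2 it was -0.38 (adjusted p = 0.0299 from limma), so the call turned on this pool. Krt20 also passed with array weights and all 6 arrays (-0.38, limma adjusted p = 0.00658). That setting called 3025 genes higher and 2422 lower, against 1313 and 1502 in the main fit. The mean of Krt20 lay below the lower quartile of all genes tested (5.44), and no detection calls were used.

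Among the keratins of stratified epithelia, Krt5 was the 1 that passed. Krt5, the type II keratin of basal cells, measured 6.37, 6.01 and 6.42 (log2) in the mutant pools and 5.60, 5.89 and 5.74 in the control pools. The mutant pools lay above all control pools, as they did for 16.9% of all genes tested. Mutant replicate 2 was nevertheless close to control replicate 2. The increase was 1.43-fold (0.52 on the log2 scale, SE 0.13, limma adjusted p = 0.0233). Leaving out any 1 of 4 arrays ended this call, with limma adjusted p values of 0.0988 and 0.0846 without the first or the third mutant array and 0.0972 and 0.0716 without the first or the third control array. It also ended with all 35556 rows in the fit (limma adjusted p = 0.0927).
Krt14, the type I partner of Krt5 in basal cells, measured 6.30, 6.23 and 6.25 in the mutant pools and 6.38, 6.37 and 6.28 in the control pools. The groups overlapped, with a log2 change of -0.09 (95% confidence interval -0.28 to 0.11). The difference Krt5 minus Krt14 was 0.07, -0.22 and 0.17 within the mutant arrays and -0.78, -0.47 and -0.54 within the control arrays, higher in all 3 mutant pools by 0.61 on average (exact permutation test, two-sided, p = 0.1).
Krt15, a type I keratin of basal cells, measured 5.54, 5.58 and 5.52 in the mutant pools and 5.49, 5.60 and 5.56 in the control pools. The mutant pools lay within the range of the control pools and the log2 change was -0.00 (95% confidence interval -0.20 to 0.19), with a sign that turns under median centring and quantile normalization. Krt13, a type I keratin of the upper layers of stratified mucosa such as oesophagus, measured 5.74, 5.95 and 5.47 in the mutant pools and 5.68, 5.39 and 5.59 in the control pools. Here too the groups overlapped (log2 change 0.17, 95% confidence interval -0.13 to 0.47). The means over all arrays of the 4 keratins of stratified epithelia lay below the median of all genes tested (7.12) and above the lower quartile.

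**Figure D2:**
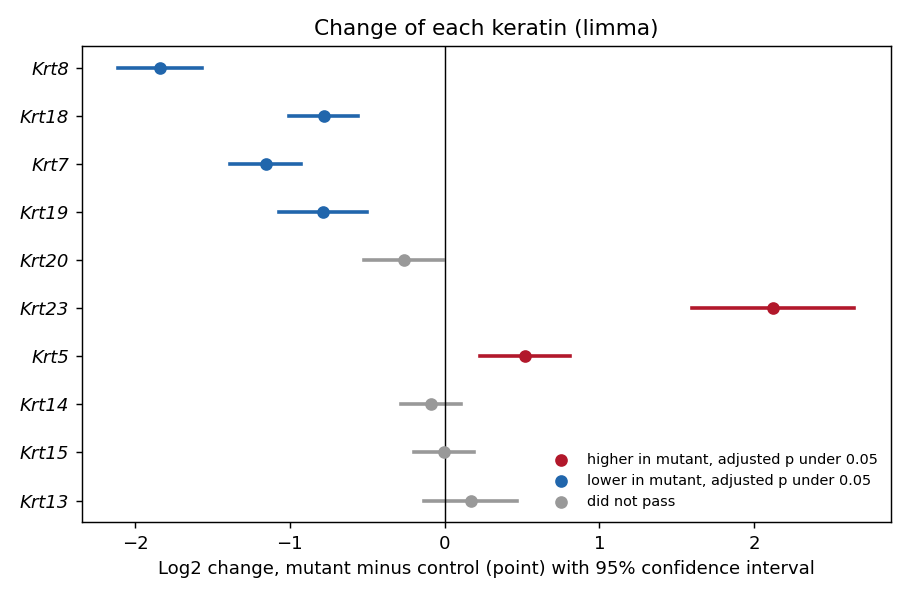
Log2 change (mutant minus control, horizontal axis) of each keratin with its 95% confidence interval from limma, 3 pools per genotype. Krt8 has the largest decrease (-1.84) and Krt23 the largest increase (2.12), and the intervals of Krt14, Krt15 and Krt13 span 0.

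Over the 6 arrays, Krt18 followed Krt8 closely (Pearson r = 0.995), the rank 15 among 19937 genes by this measure. Krt7 (r = 0.989) and Krt19 (r = 0.954) followed it as well, whereas Krt23 (r = -0.918) and Krt5 (r = -0.793) ran the opposite way. The genes most like Krt8 by the same measure were Lcor (r = 0.998), a nuclear receptor corepressor, Exoc6 (r = 0.998), a subunit of the exocyst, Osr2 (r = 0.997), a zinc finger transcription factor, Acsm3 (r = 0.997), a medium-chain acyl-CoA synthetase, and Egfl6 (r = 0.997), a secreted matrix protein. All these points share the same 2 genotypes, so the order reflects the difference between them and is given as a description.

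Epithelial markers outside the keratins moved with these changes. Of 19 such markers tested, 16 were lower in the mutant pools by limma, 0 were higher (also 0 at an unadjusted p under 0.05) and 3 did not pass, with a median log2 change of -0.78, and their mean level was 8.65 to 8.81 (log2) in the mutant pools and 9.42 to 9.65 in the control pools. Cdh1, the E-cadherin gene, fell 3.20-fold (-1.68 on the log2 scale, SE 0.13), and Ehf (-1.97, SE 0.18) and Elf3 (-1.37, SE 0.09), both epithelial ETS factors, fell as well. These are the steep falls of the list. Epcam fell less (-0.39, SE 0.11), and St14 (0.23, SE 0.13) and Marveld3 (0.14, SE 0.11) pointed upward without passing. The marker mean used below thus averages changes from -1.97 to 0.23.
Set against the mean of these markers within each array, Krt18 stood at 0.91, 0.96 and 1.04 in the mutant pools and 0.89, 0.95 and 1.06 in the control pools. These values overlapped almost fully, and so did those of Krt19, at -1.73, -1.46 and -1.25 in the mutant pools and -1.52, -1.45 and -1.45 in the control pools. Krt18 and Krt19 thus fell about as far as the average epithelial marker, with differences of 0.00 and -0.00 on the log2 scale whose signs turn under quantile normalization (exact permutation tests, two-sided, p = 1 and p = 0.8).
Krt8 was lower against that mean, at 1.16, 1.21 and 1.34 in the mutant pools and 2.09, 2.31 and 2.49 in the control pools (difference -1.06, exact permutation test, two-sided, p = 0.1). Against Cdh1 alone, however, Krt8 stood at 0.84, 0.98 and 0.94 in the mutant pools and 0.83, 1.02 and 1.40 in the control pools, which overlap (difference -0.16, exact permutation test, two-sided, p = 0.5). This value rests on single arrays, since the difference was -0.29 without control replicate 1, where the groups did not overlap, and -0.0044 without control replicate 3. Krt7 was lower relative to the marker mean by 0.37 and higher relative to Cdh1 by 0.52, so its standing depends on which epithelial gene it is set against.
Krt23 relative to the marker mean was -1.25, -1.74 and -0.69 in the mutant pools and -4.12, -4.21 and -4.06 in the control pools. This is an increase of 2.90 on the log2 scale (exact permutation test, two-sided, p = 0.1). Of it, 2.12 is the change of Krt23 itself, and the rest is the fall of the marker mean. In all, 23 differences within arrays were computed, of which 20 reached the smallest possible p of 0.1, or 0.115 after Benjamini-Hochberg adjustment. For Krt13, Krt14, Krt15 and Krt20, which did not pass by themselves, such a difference mostly restates the fall of Cdh1 or of the marker mean. The count is therefore not a count of changed keratins.

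**Figure D3:**
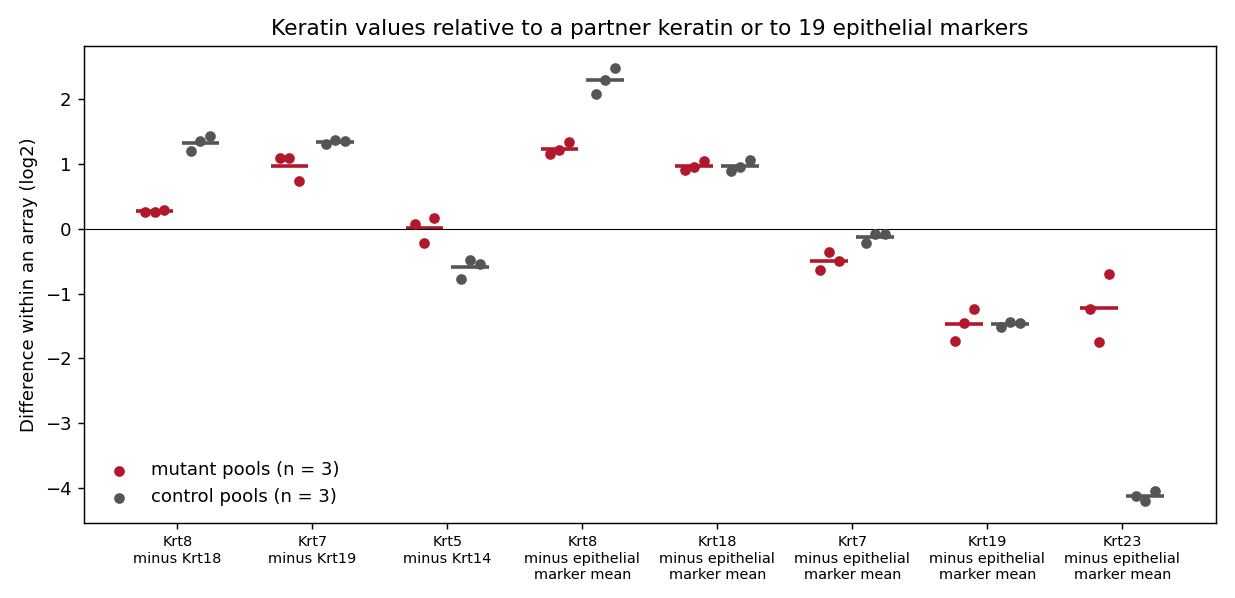
Differences within an array (log2, vertical axis) between keratins, or between a keratin and the mean of 19 epithelial markers. Each point is 1 pool and bars are means of 3 mutant pools (red) and 3 control pools (grey). Krt8 minus Krt18 separates the genotypes, while Krt18 and Krt19 relative to the marker mean overlap.

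Outside these 10 genes, 1 of the 42 other keratins tested was lower in the mutant pools by limma's adjusted p, 0 were higher and 41 did not pass. At an unadjusted p under 0.05, 3 were higher and 1 was lower, with a median log2 change of 0.06 and a range of -0.56 to 0.36. The 1 that fell was Krt80, a type II keratin whose gene lies beside Krt7 on chromosome 15. It measured 6.81, 6.68 and 6.64 (log2) in the mutant pools and 7.26, 7.28 and 7.28 in the control pools (-0.56 on the log2 scale, SE 0.09, limma adjusted p = 0.00195). Of the 42, 21 had a mean below the lower quartile of all genes tested and 1 had a mean above the median.

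Keratin filaments are anchored at desmosomes between cells and at hemidesmosomes at the basement membrane. Of 13 desmosome genes, 8 were lower in the mutant pools by limma, 0 were higher (also 0 at an unadjusted p under 0.05) and 5 did not pass, with a median log2 change of -0.75. Dsc2, a desmosomal cadherin, fell 2.71-fold, with array values of 6.12, 5.93 and 6.01 (log2) in the mutant pools and 7.41, 7.49 and 7.46 in the control pools. Dsp, the desmoplakin that ties keratin to the plaque, fell 2.10-fold, with 8.34, 7.75 and 8.34 in the mutant pools and 9.19, 8.99 and 9.46 in the control pools. The plakophilin Pkp2 (-1.05 on the log2 scale, SE 0.09) and the cadherin Dsg2 (-0.88, SE 0.12) fell too.
Of 6 hemidesmosome genes, 3 were lower and 3 did not pass. Those that did not pass were Plec (-0.34 on the log2 scale, SE 0.14), Itgb4 (-0.05, SE 0.10) and Col17a1 (-0.03, SE 0.09). Itga6, the integrin subunit of hemidesmosomes and of many other basement membrane contacts, fell 2.28-fold (-1.19 on the log2 scale, SE 0.11), and Dst (-0.88, SE 0.11) and Cd151 (-0.33, SE 0.10) fell less. Among 14 genes of other intermediate filaments, 1 was higher, 5 were lower and the remaining 8 missed the threshold. Des of muscle (-1.11, SE 0.13) and the neuronal genes Ina (-1.03, SE 0.14) and Nefl (-0.89, SE 0.19) fell. Nes, the filament of progenitor cells, rose (0.75, SE 0.10). Of the mesenchyme markers counted below, the smooth muscle gene Acta2 rose 2.83-fold and Prrx1 fell 5.61-fold in the mutant pools. The cause of the fall of Des was not tested. Vim, the filament of mesenchymal cells, measured 13.01, 12.96 and 13.08 in the mutant pools and 13.02, 13.08 and 12.99 in the control pools, which overlap (log2 change -0.02, 95% confidence interval -0.22 to 0.18).

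Genes of squamous and basal cells were set beside Krt5. Of 15, 1 passed upward, 1 passed downward and the remaining 13 missed the threshold, with a median log2 change of 0.10. Over all genes tested, 6.59% passed upward and 7.53% downward, so the counts of this list lie near that background. Trp63, the transcription factor of basal cells, was lower, with array values of 6.10, 6.06 and 5.98 (log2) in the mutant pools and 6.72, 6.54 and 6.54 in the control pools (-0.56 on the log2 scale, SE 0.09, limma adjusted p = 0.00273). Krt5 and Trp63 thus had changes of opposite sign, though the call of Krt5 depended on single arrays, as given above. Dapl1, a gene of differentiating stratified epithelium, was higher, with 7.30, 6.90 and 8.23 in the mutant pools and 6.04, 5.58 and 5.88 in the control pools (1.65 on the log2 scale, SE 0.28, limma adjusted p = 0.00284).

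**Figure D4:**
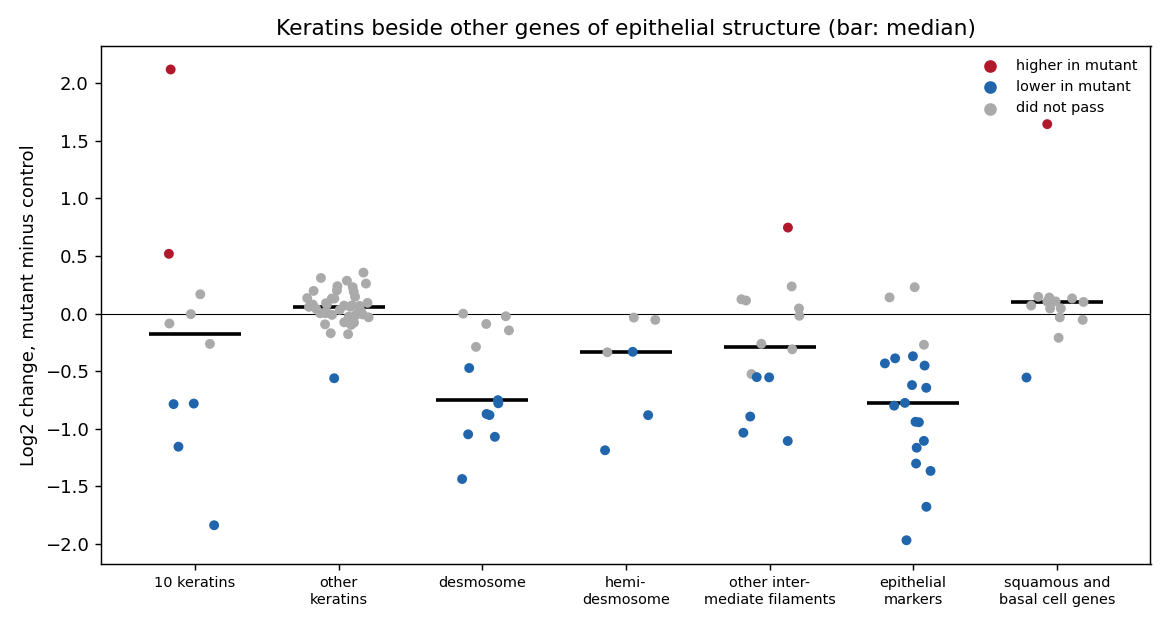
Log2 change (mutant minus control, vertical axis) of the 10 keratins, 42 other keratins and 5 further gene lists. Each point is 1 gene, coloured by its limma call, and bars are medians. Of the other keratins 1 is lower in the mutant pools by the test and none is higher, while 8 of 13 desmosome genes and 16 of 19 epithelial markers are lower.

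Markers of the tissue and of other cell types are given beside the keratins, and their part in the keratin changes was not tested. Over all genes tested, 7.53% were lower and 6.59% higher in the mutant pools. Mean levels of the erythroid and the leukocyte markers overlapped between the genotypes. Of 10 pancreatic epithelial markers, 8 were lower and 2 did not pass, with mean levels of 7.02 to 7.10 (log2) in the mutant pools and 9.59 to 9.92 in the control pools, so the control pools held the markers of embryonic pancreas. Mesothelium, the outer lining of the organ, also makes simple keratins, and of 12 mesothelial markers 4 were lower and 8 did not pass, with mean levels of 7.86 to 8.04 in the mutant pools and 8.04 to 8.27 in the control pools. The mesothelial gene Lrrn4 had a log2 change of -0.94 (SE 0.15), while Msln, with values of 5.31 to 5.48 in the mutant pools and 5.29 to 5.35 in the control pools, did not pass. Of 12 mesenchyme markers 6 were higher and 2 lower (mean levels of 10.04 to 10.23 in the mutant pools and 9.69 to 9.83 in the control pools), and of 10 endothelial markers 1 was higher (9.25 to 9.42 in the mutant pools and 9.06 to 9.22 in the control pools). Of 8 neural markers 7 were lower (6.57 to 6.71 in the mutant pools and 7.67 to 7.75 in the control pools), of 8 erythroid markers 2 were higher (8.53 to 8.73 in the mutant pools and 8.32 to 8.68 in the control pools), and 0 of 10 leukocyte markers passed limma's adjusted p, with 1 higher and 1 lower at an unadjusted p under 0.05 (7.87 to 8.11 in the mutant pools and 7.85 to 7.98 in the control pools).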

How the data were processed

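The table that the authors deposited gives 35556 rows on the log2 scale for 6 Affymetrix Mouse Gene 1.0 ST arrays. The medians of its columns lay between 6.37 and 6.47. The method of background correction and normalization was not stated in the sources used here. Groups and replicate numbers come from the sample titles, and the pool size from the methods. Rows were named through the platform annotation, 1621 rows with several symbols were left out, and the 21789 rows with 1 symbol gave 19938 genes, each represented by its row with the highest mean. Entrez identifiers of 21698 of these rows matched RefSeq GRCm38.p6, used for names and neighbours, and 0 symbols changed.

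Mutant was compared with control over all genes with the R package limma (version 3.58.1, R version 4.3.3), by lmFit followed by eBayes (no covariate, no filter on dim genes), as the methods name limma, at a Benjamini-Hochberg adjusted p under 0.05. The step was tested on simulated data. Differences within arrays were tested by exact permutation of the arrays. Python 3.11.15, pandas 2.3.3 and matplotlib 3.10.9 made tables and figures.

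The keratins and lists (desmosome, hemidesmosome, other intermediate filament, epithelial, squamous and basal cell, pancreatic, mesothelial, mesenchyme, endothelial, leukocyte, neural, erythroid and, for scaling, housekeeping genes, of which 2 of 11 tested were higher and 1 lower) were chosen with earlier results of these data known. Tried as alternatives were leaving out each array, a replicate block, other scalings, filters on level, row rules, priors, array weights and thresholds. Named are all 10 keratins, up to 4 genes a list, those that passed with the highest absolute change, and the genes most correlated with Krt8. Outside this rule, Krt39, Vim, Msln, Epcam, St14, Marveld3, Plec, Itgb4 and Col17a1 were chosen after their values were seen. List members without a tested row are not analysed here.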

Additional observations from a re-analysis of the deposited data

How the results depend on the processing

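Krt7, Krt8 and Krt23 kept their direction and their call under every alternative that was run for them (19, 19 and 18 settings), and Krt18 and Krt19 did so except at a threshold of at least 2-fold. Keratins lower in the mutant pools numbered 2 at that threshold and 4 to 5 without 1 array. Keratins higher numbered 1 with a replicate block, with all rows in the fit, at an adjusted p of 0.01 and at 2-fold, 0 among genes above the median level, where Krt23 and Krt5 are not tested, and 1 to 2 without 1 array. The other keratins higher numbered 1 with arrays centred on their medians, with quantile normalization and among genes above the lower quartile, 4 with array weights, 3 at an unadjusted p of 0.05, and 0 to 1 without 1 array, and those lower numbered 0 above the median level and at 2-fold. With array weights Krt20 passed (-0.38, limma adjusted p = 0.00658). The cause of these moves was not tested.

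Over all genes, 843 to 1328 were higher without 1 array, the lowest without mutant replicate 1, against 1313 with all arrays. The balance of directions depended on scaling, against 1313 higher and 1502 lower in the main fit. With arrays centred on their medians 1615 were higher and 1366 lower. With arrays centred on housekeeping genes 1014 were higher and 1608 lower. There were 751 higher with all rows in the fit, 3025 higher and 2422 lower with array weights, 723 higher at an adjusted p of 0.01, 2695 higher and 2386 lower at an unadjusted p of 0.05, and 260 higher and 417 lower at 2-fold.

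The change of Krt15 turned its sign with median centring (0.0330), quantile normalization (0.0247) and array weights (0.00796), and lay between -0.0363 and 0.0213 without 1 array. Relative to the epithelial marker mean, Krt18 stood at -0.0189 and Krt19 at 0.0201 with quantile normalization, and between -0.0384 and 0.0473 (Krt18) and between -0.120 and 0.122 (Krt19) without 1 array.

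For each array, the deviations of all genes from the mean of its own group were taken. Between samples with the same replicate number these deviations did not go together (r = 0.01, -0.15 and -0.05), so no pairing by number was seen. With the replicate block 1011 genes were higher and 1274 lower, and among the keratins Krt5 lost its call (limma adjusted p = 0.0704). By the same deviations, mutant replicates 2 and 3 correlated best with control replicates 1 and 2 (r = 0.15 and 0.19). Deviations from a group mean cancel out within the group, so each array has some positive best match by construction. Whether these samples share anything was not tested. No signal over background is given for these values, so the reliability of dim genes such as Krt20 cannot be judged beyond the spread of 3 pools.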
